A study of Mus musculus with 10 samples.

Results

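Genes of the NRF2 pathway and of antioxidant defence were measured in macrophages grown from mouse bone marrow. The 35 members were a fixed list of gene symbols, matched to Ensembl gene IDs through the symbol column of the deposited log2 table, and they are 35 of 54307 genes in the count table and of 12411 genes expressed strongly enough to be tested. All 35 passed the filter on low counts. The rule for membership uses no measured value, but the list was chosen with earlier results of these data known. The 10 libraries came from male mice aged 6 to 8 weeks, 5 labelled wild-type control (Ctrl) and 5 labelled hWDFY3KI/KI, which carry the human WDFY3 knock-in on both alleles for overexpression of WDFY3, a large scaffold protein of selective autophagy. The promoter that drives the human gene is not named in the labels. Both groups were grown in medium with 20% L-929 fibroblast conditioned medium and harvested at day 7. The design text counts 5 mice of each genotype, and the study asks how WDFY3 overexpression changes the macrophage transcriptome.

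NRF2, encoded by Nfe2l2, is a transcription factor whose protein is bound by KEAP1 and passed to the proteasome, until oxidants or electrophiles modify KEAP1 and NRF2 accumulates. In the nucleus it pairs with small MAF proteins on antioxidant response elements, and BACH1 occupies the same elements as a repressor that heme displaces. The targets make glutathione, reduce thioredoxin, supply NADPH, break down heme and detoxify quinones, and in macrophages the pathway is known for handling the oxidants and the heme that come with engulfed cells.

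The libraries held 14617652 to 36387405 estimated counts, and a member had at least 71 counts in every library (Me1), with 33 of 35 at 100 or more. The level of a gene is its CPM, the count scaled to library size, which can be compared between libraries but not between genes. The macrophage markers (8 of 8 tested, Lyz2, Csf1r and Cd68 among them) summed to between 25276 and 33831 CPM for controls and to between 29987 and 35405 CPM for knock-ins, most of it Lyz2 (18249.8 to 31387 CPM). Of these markers 6 of 8 had a log2 fold change below 0, against 51.7% of all tested genes. By CPM, Adgre1, which encodes the macrophage surface protein F4/80, was lower in every knock-in than in every control. The same held for 0.588% of all tested genes. The mean of Adgre1 was 953 ± 75.8 CPM over the controls against 824 ± 17.0 CPM over the knock-ins (log2 -0.21, adjusted p = 0.548, edgeR). On the deposited log2 values its groups overlapped, with control 1 at 14.07 and knock-in 5 at 14.11. Control 1, control 4 and knock-in 4 stood apart by their stromal RNA. The 10 stromal markers, collagens and decorin among them, summed to 168 and 167 CPM in these controls and 99.4 CPM in this knock-in, against 2.53 to 25.5 CPM in the other 7 libraries, and none of the 10 was at 0 throughout. The 10 neutrophil markers were also highest there, at 41.0, 51.01 and 20.4 CPM against 4.91 to 14.7 CPM. The mouse gene Wdfy3 was at a mean of 109.8 and 119.7 CPM (log2 fold change 0.13, adjusted p = 0.811, edgeR), and whether reads of the human transcript were counted in it is not stated in the labels. Means are given ± SD and log2 fold changes (knock-in minus control) ± SE, with n = 5 libraries in each genotype.

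The fitted differences between genotypes were near 0 for the 3 regulators of the pathway, while most of the target genes had a lower mean in the knock-in macrophages by an amount within the spread of the libraries. In edgeR's quasi-likelihood test over all 12411 genes, 0 of 35 members had an adjusted p under 0.05, against 0.0806% of all tested genes. The smallest adjusted p of a member was 0.588. Of the members 29 of 35 (82.9%) had a log2 fold change (knock-in minus control) below 0, against 51.7% of all tested genes, and the median was -0.18 against -0.0046. An unadjusted p under 0.05 was found for 6 of 35 members (17.1%), against 6.21% of all tested genes. Of these 5 were lower in the knock-ins (Nqo1, Gclc, Sod2, G6pdx and Me1; 2.92% of all tested genes) and 1 higher (Gpx1; 3.29% of all tested genes). The count of 6 rested on single libraries. It was 2 without knock-in 3 (4.84% of all tested genes there) and 3 without control 4 (6.23% of all tested genes there). It was 3 without knock-in 5 (4.52% of all tested genes there) and 17 without knock-in 4 (7.97% of all tested genes there). With the neutrophil score as covariate it was 2 (7.36% of all tested genes). In DESeq2 it was 10 (3.76% of the 24020 genes with a p there). The libraries of the 2 genotypes did not overlap for 1 member, Gpx1, against 1.32% of all tested genes. DESeq2 gave 0 of 35 members as well, against 0.268% of the 17927 genes to which it gave an adjusted p. The members share libraries, so these counts are a description of the list and not a test of it.

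The median difference depended on a few libraries. It was -0.11 without control 1 and -0.11 without control 4, -0.12 without knock-in 5, but -0.26 without knock-in 4, -0.24 without control 2 and -0.23 without control 5. It was -0.087 when the 3 stroma-rich libraries (control 1, control 4 and knock-in 4) were left out, where 27 of 35 members were below 0 against 50.2% of all tested genes. In fits with a marker score as covariate it was -0.078 for the stromal score, with 25 of 35 members below 0, and -0.015 for the neutrophil score, with 19 of 35 below 0. The members also varied more between libraries than most genes: the median ratio of highest to lowest library was 1.69 for the members and 1.32 for the 9570 genes with a mean CPM of 5 or more, a ratio that 25 of 35 members exceeded.

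**Figure D1:**
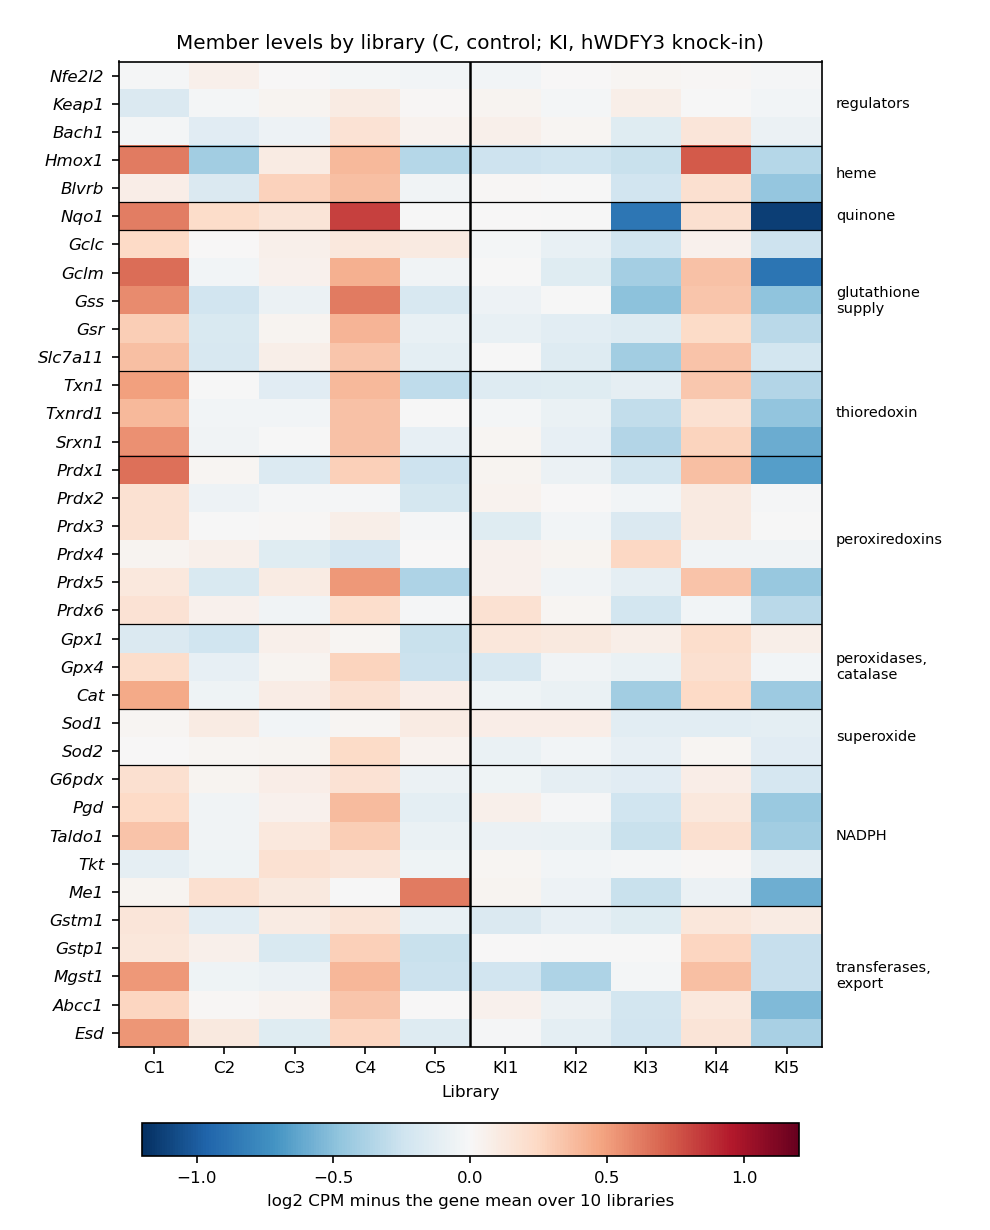
Level of each member (rows, grouped by role) in each library (columns; C, control; KI, hWDFY3 knock-in), as log2 CPM minus the mean of that gene over the 10 libraries. Control 1, control 4 and knock-in 4 are high and knock-in 3 and knock-in 5 low for most target genes, while the row of Nfe2l2 is nearly even.

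The regulators had similar means in both genotypes. Nfe2l2 (ENSMUSG00000015839, chromosome 2, 75675513 to 75704641, minus strand, GRCm38) was at 363, 381, 366, 359 and 358 CPM in controls 1 to 5 and at 358, 367, 372, 369 and 362 CPM in knock-ins 1 to 5. All 10 libraries lay close together and the groups overlapped throughout. The log2 fold change was 0.000322 ± 0.0438 (2 SE interval, -0.087 to 0.088). Its highest library was 1.06 times its lowest, and 0.0418% of those 9570 genes had a smaller ratio.

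Keap1, the adaptor that presents NRF2 for degradation, was at 44.6, 49.4, 51.4, 53.9 and 50.8 CPM in controls 1 to 5 and at 51.4, 49.5, 52.8, 50.01 and 49.1 CPM in knock-ins 1 to 5. Control 1 held the lowest and control 4 the highest value, with every knock-in between them. Its log2 fold change was 0.016 ± 0.0553 (2 SE interval, -0.094 to 0.13). Bach1, the heme-regulated repressor of the same elements, was at 133, 123, 129, 152 and 139 CPM in controls 1 to 5 and at 141, 137, 122, 149 and 129 CPM in knock-ins 1 to 5. Knock-in 3 was lowest and control 4 highest, and the groups overlapped. The difference was 0.0028 ± 0.0697 on the log2 scale (2 SE interval, -0.14 to 0.14).

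Short upstream sequences of members with a match to the antioxidant response element are shown here, because this is the element NRF2 is known to bind. The core TGACNNNGC was searched on both strands from 250 bases before to 50 bases after each RefSeq start (GRCm38.p6). A promoter entry was matched for 30 of 35 members. A match was found in 10 of 30 members (33.3%), against 13.99% of 27025 genes. Among members that were higher in the stroma-rich libraries of both genotypes, described below, 7 of 20 with an entry had a match, and among the rest 3 of 10 did (Me1, Nfe2l2 and Sod1). Of these genes 6 had a match with 30 bases on either side before the start, and they are printed on the strand of the gene, 5′ to 3′, with the element in capitals. Each reads as the reverse complement of the core, since the core lies on the opposite strand.
Gclm: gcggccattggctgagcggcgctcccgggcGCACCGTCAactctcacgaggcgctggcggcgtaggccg
Prdx1: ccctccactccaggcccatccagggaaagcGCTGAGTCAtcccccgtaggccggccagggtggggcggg
Txnrd1: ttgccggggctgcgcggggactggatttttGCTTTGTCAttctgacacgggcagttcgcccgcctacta
G6pdx: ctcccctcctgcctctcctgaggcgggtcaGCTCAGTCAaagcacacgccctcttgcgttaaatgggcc
Mgst1: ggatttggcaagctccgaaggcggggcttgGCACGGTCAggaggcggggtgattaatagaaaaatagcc
Sod1: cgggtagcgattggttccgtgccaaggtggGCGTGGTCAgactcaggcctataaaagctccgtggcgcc
All 6 lie upstream of the RefSeq start from which they were measured, but those of Txnrd1, G6pdx and Mgst1 lie inside the gene as annotated in GENCODE M21. Sod1 is the only one of the 6 outside the group that was higher in the stroma-rich libraries, a group with 20 of the 30 searched members. The stretch of Gclm is chr3:122245393-122245461 on the plus strand, with the element 134 bases before the start, and that of Prdx1 is chr4:116685436-116685504, plus strand, 133 bases before it. The others are chr10:82859084-82859152 for Txnrd1 (plus strand, 92 bases before one of its 3 starts), chrX:74428899-74428967 for G6pdx (minus strand, 57 bases), chr6:138140441-138140509 for Mgst1 (plus strand, 56 bases before one of 2 starts) and chr16:90220676-90220744 for Sod1 (plus strand, 56 bases). A match is a description of letters and not a site of binding, and binding was not measured. Whether the element had a part in the members' levels was not tested.

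Genes of glutathione synthesis and supply all had a lower mean in the knock-ins, 5 of 5, with a median log2 fold change of -0.22, and none passed the test. Gclc, the catalytic subunit of the enzyme that starts glutathione synthesis (ENSMUSG00000032350, chromosome 9, 77754535 to 77794485, plus strand), was at 63.5, 54.2, 56.2, 58.8 and 58.2 CPM in controls 1 to 5 and at 52.9, 50.8, 45.6, 55.9 and 45.2 CPM in knock-ins 1 to 5. The 4 knock-ins other than knock-in 4 lay below every control, and knock-in 4 lay above control 2 only. The difference was -0.22 ± 0.0686 (adjusted p = 0.657, edgeR), and it was -0.21 ± 0.0701 without the 3 stroma-rich libraries (adjusted p = 0.503, edgeR).

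Gclm, the modifier subunit of that enzyme, spread more widely, at 228, 139.9, 149, 193 and 139 CPM in controls 1 to 5 and 143, 129.6, 108, 183 and 78.1 CPM in knock-ins 1 to 5. Control 1 and control 4 were highest and knock-in 4 came next, while knock-in 3 and knock-in 5 were lowest, so that the highest library was 2.92 times the lowest. The means were 169.9 ± 39.4 CPM over the controls against 129 ± 39.3 CPM over the knock-ins, a log2 difference of -0.40 ± 0.233 (adjusted p = 0.823, edgeR). The 2 subunits of 1 enzyme therefore differed in their spread over libraries, since the ratio of highest to lowest was 1.404 for Gclc. Gss, which completes glutathione, was at 19.1 ± 5.72 and 15.5 ± 3.81 CPM in controls and knock-ins (log2 -0.31 ± 0.223). Gsr, which reduces oxidised glutathione, was at 109 ± 19.3 and 95.7 ± 13.8 CPM (-0.19 ± 0.127). Slc7a11, the cystine transporter that feeds the pathway, was at 38.6 ± 6.75 and 34.2 ± 7.07 CPM (-0.18 ± 0.153), and its values are uncertain because 373 bases of its longest annotated transcript match the tubulin gene Tuba1b. These 3 genes were highest in control 1 or control 4.

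Nqo1 (ENSMUSG00000003849, chromosome 8, 107388225 to 107403206, minus strand) encodes a quinone reductase and is a standard readout of NRF2 activity. It had the largest fitted difference of the 35 members in edgeR. It was at 14.8, 11.3, 10.8, 17.1 and 9.68 CPM in controls 1 to 5 and at 9.701, 9.69, 5.33, 11.1 and 4.44 CPM in knock-ins 1 to 5. Knock-in 3 and knock-in 5 were far below the other 8 libraries, and knock-in 1, knock-in 2 and control 5 stood at nearly 1 level. The mean was 12.7 ± 3.11 CPM over the controls against 8.04 ± 2.96 CPM over the knock-ins (log2 -0.68 ± 0.266, adjusted p = 0.744, edgeR), and without the 3 stroma-rich libraries the difference was -0.55 ± 0.279. On the deposited log2 values the difference between group means was -0.25 for Nqo1 and larger for Gclm (-0.34).

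In heme breakdown, Hmox1, the heme oxygenase that releases iron, carbon monoxide and biliverdin, spread widely within both genotypes. It was at 1220.1, 593, 847, 1034 and 624 CPM in controls 1 to 5 and at 666, 667, 658, 1316 and 622 CPM in knock-ins 1 to 5. Knock-in 4 had the highest value of all, above control 1 and control 4, and the other 4 knock-ins lay within 622 to 667 CPM. The means were 864 ± 268 CPM over the controls against 786 ± 297 CPM over the knock-ins (log2 -0.14 ± 0.2800, adjusted p = 0.951, edgeR). Blvrb, a biliverdin reductase, was at 231 ± 35.2 and 203 ± 34.6 CPM (log2 -0.19 ± 0.131).

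In the thioredoxin system, 3 of 3 members had a lower mean in the knock-ins, with a median of -0.27, and none passed the test. Txnrd1, the selenoenzyme that reduces thioredoxin with NADPH, was at 505, 377, 376, 492 and 384 CPM in controls 1 to 5 and at 379, 365, 314, 435 and 277 CPM in knock-ins 1 to 5. Its 3 highest libraries were control 1, control 4 and knock-in 4, and its 2 lowest were knock-in 5 and knock-in 3. The log2 difference was -0.27 ± 0.1300 (adjusted p = 0.799, edgeR). Srxn1, the sulfiredoxin that repairs overoxidised peroxiredoxins, was at 515, 342, 351, 448 and 329.7 CPM in controls 1 to 5 and at 358, 329, 276, 424 and 233 CPM in knock-ins 1 to 5. The same 3 libraries led and the same 2 trailed, with a log2 difference of -0.29 ± 0.177 (adjusted p = 0.837, edgeR). Txn1, thioredoxin itself, was at 288 ± 68.5 and 252 ± 46.7 CPM (-0.19 ± 0.171).

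**Figure D2:**
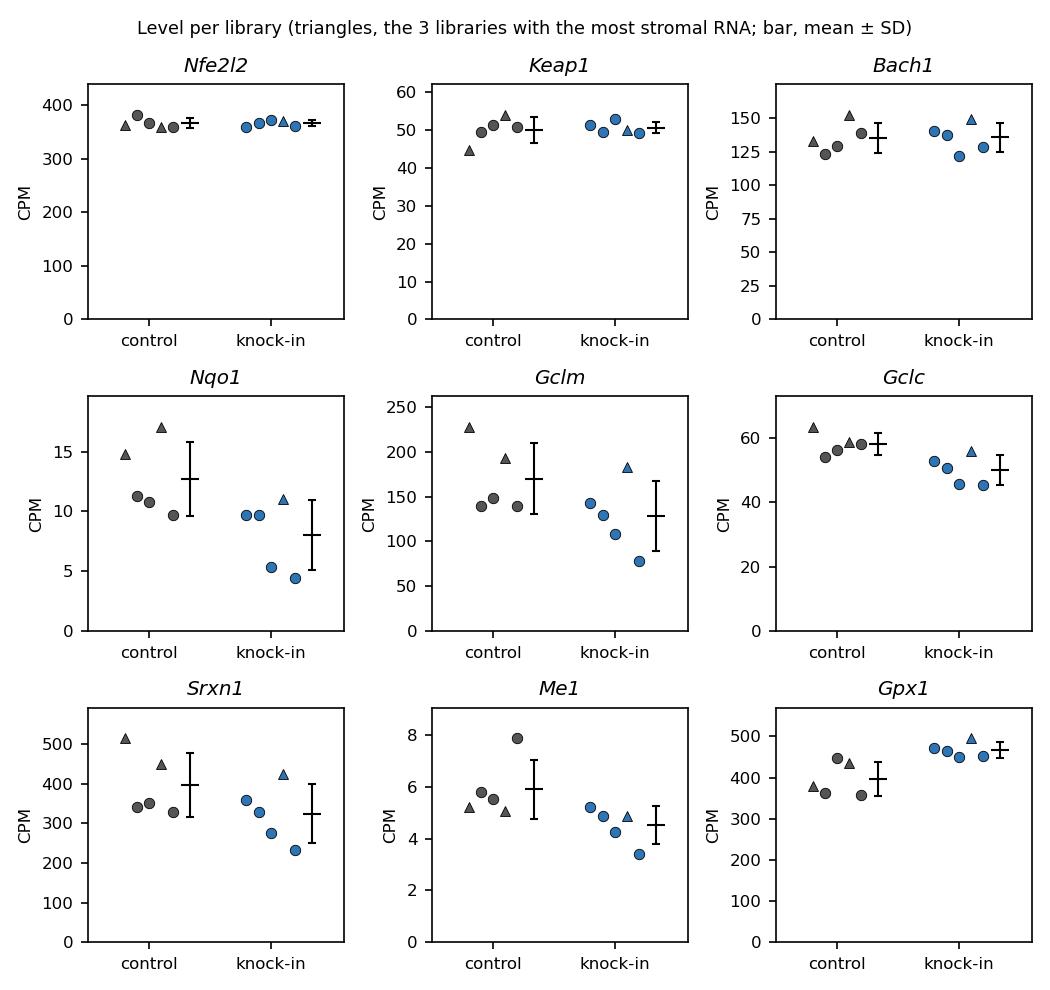
CPM (from 0) in each control (grey) and knock-in (blue) library for 9 members, with triangles for control 1, control 4 and knock-in 4 and a bar for the mean ± SD of 5 libraries. Nfe2l2 is level at 358 to 381 CPM, Nqo1, Gclm and Srxn1 spread within each genotype, and the knock-ins of Gpx1 lie above every control.

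The 6 peroxiredoxins, which reduce hydrogen peroxide with thioredoxin or glutathione, differed among themselves in the sign of the fitted difference. Prdx1, an NRF2 target, was at 13358, 8579, 7524, 10336 and 7108 CPM in controls 1 to 5 and at 8669, 8029, 7254, 10859.8 and 5349 CPM in knock-ins 1 to 5. Control 1, knock-in 4 and control 4 held its highest values and knock-in 5 its lowest, 2.497 times apart at the extremes. The genotype difference of -0.22 ± 0.217 was no larger than 2 SE. Prdx2 was at 134 ± 13.4 and 138 ± 5.37 CPM (0.040 ± 0.0674), and Prdx4, the peroxiredoxin of the endoplasmic reticulum, was at 54.5 ± 4.36 and 58.3 ± 4.997 CPM (0.10 ± 0.0712). These were the only peroxiredoxins with a higher mean in the knock-ins, and neither passed the test. Mitochondrial Prdx3 was at 41.5 ± 2.35 and 38.8 ± 3.11 CPM (-0.10 ± 0.0638), and Prdx6, which uses glutathione, was at 70.7 ± 5.65 and 63.98 ± 8.87 CPM (-0.15 ± 0.0905). Prdx5 was at 256 ± 61.96 and 241 ± 47.5 CPM (-0.089 ± 0.1804), with values that are uncertain because its transcript shares 360 bases with the overlapping gene Trmt112 on the other strand.

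Gpx1 (ENSMUSG00000063856, chromosome 9, 108338903 to 108340343, plus strand), the cytosolic selenoprotein that reduces hydrogen peroxide with glutathione, had a higher mean in the knock-ins. It was at 379, 363, 447, 435 and 357 CPM in controls 1 to 5 and at 471, 466, 451, 496 and 452 CPM in knock-ins 1 to 5. Every knock-in lay above every control, with the smallest gap between knock-in 3 and control 3. On the deposited log2 values the groups overlapped, with control 3 at 13.15 and knock-in 5 at 13.14. The mean was 396 ± 42.05 CPM over the controls against 467 ± 18.2 CPM over the knock-ins, a log2 difference of 0.24 ± 0.0705 (adjusted p = 0.588, edgeR), the smallest p of the 35 members. Leaving out the stroma-rich libraries gave 0.24 ± 0.0824 and adding the stromal score gave 0.25 ± 0.0729, and the difference lay between 0.18 and 0.30 in the 22 alternative fits. Gpx4, the peroxidase of lipid peroxides, was at 304 ± 44.7 and 289.8 ± 28.3 CPM (-0.068 ± 0.0995).

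Catalase (Cat), which splits hydrogen peroxide in peroxisomes, was at 993, 698, 769.8, 824 and 766 CPM in controls 1 to 5 and at 699.6, 684, 541, 857 and 534 CPM in knock-ins 1 to 5. Knock-in 3 and knock-in 5 were the lowest and control 1 the highest, and knock-in 4 lay above control 4. The difference was -0.29 ± 0.135 (adjusted p = 0.799, edgeR) and -0.28 ± 0.103 without the 3 stroma-rich libraries. Of the superoxide dismutases, the mitochondrial Sod2 was at 57.5, 58.1, 58.3, 66.9 and 58.8 CPM in controls 1 to 5 and at 53.97, 55.8, 53.4, 58.2 and 52.1 CPM in knock-ins 1 to 5. Control 4 was high, the other controls lay between 57.5 and 58.8 CPM, and knock-in 4 alone reached into that range. The difference was -0.13 ± 0.0555 (adjusted p = 0.745, edgeR). Cytosolic Sod1 was at 161 ± 6.35 and 152 ± 11.7 CPM (-0.085 ± 0.0597).

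Of the genes of the pentose phosphate pathway and of NADPH supply, G6pdx, Pgd and Me1 encode enzymes that form NADPH, the reducing power for both glutathione and thioredoxin, while Taldo1 and Tkt belong to the non-oxidative branch. The knock-in mean was lower in 5 of 5, with a median of -0.20, and none passed the test. G6pdx, which opens the pentose phosphate pathway, was at 375, 335, 347, 371 and 314 CPM in controls 1 to 5 and at 317, 304, 299, 347 and 285 CPM in knock-ins 1 to 5. Knock-in 4 lay inside the control range and knock-in 1 just above control 5, while knock-in 2, knock-in 3 and knock-in 5 were below all controls, giving -0.17 ± 0.0675 on the log2 scale (adjusted p = 0.744, edgeR). Pgd, the next dehydrogenase of the pathway, was at 705, 580.4, 621, 777 and 553 CPM in controls 1 to 5 and at 626, 591, 507, 656 and 441 CPM in knock-ins 1 to 5. The groups overlapped, with control 4 and control 1 highest and knock-in 5 lowest, and the difference was -0.20 ± 0.1202 (adjusted p = 0.831, edgeR).

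Taldo1, the transaldolase of the non-oxidative branch, was at 550.3, 421, 476, 532 and 412 CPM in controls 1 to 5 and at 413, 411, 362, 498 and 326 CPM in knock-ins 1 to 5. Knock-in 1 and knock-in 2 sat beside control 5, and knock-in 3 and knock-in 5 below them (log2 -0.25 ± 0.116, adjusted p = 0.795, edgeR). Tkt, the transketolase of the same branch, was at 559.9 ± 51.5 and 540.2 ± 19.1 CPM (-0.052 ± 0.0646). Me1, the cytosolic malic enzyme, had the fewest counts of the members, with a pseudogene copy (Gm7329) at 1.39% of its count, and was at 5.197, 5.804, 5.52, 5.08 and 7.86 CPM in controls 1 to 5 and at 5.22, 4.88, 4.23, 4.87 and 3.39 CPM in knock-ins 1 to 5. Control 5 stood above all others and knock-in 5 below, and control 1 and control 4 were not raised here. The difference was -0.38 ± 0.154 (adjusted p = 0.744, edgeR) and -0.53 ± 0.181 without the 3 stroma-rich libraries.

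Among the transferases and exporters, Abcc1, which pumps glutathione conjugates out of the cell, was at 248, 210.4, 214, 262 and 208 CPM in controls 1 to 5 and at 216, 198, 178, 227 and 144 CPM in knock-ins 1 to 5. Control 4 and control 1 were highest and knock-in 5 lowest by a wide margin, and the difference was -0.25 ± 0.116 (adjusted p = 0.799, edgeR). Esd, an esterase that also hydrolyses a glutathione adduct of formaldehyde, was at 909, 683, 571, 753 and 566 CPM in controls 1 to 5 and at 623, 579.6, 536, 702 and 480.4 CPM in knock-ins 1 to 5. Control 1 led and knock-in 5 trailed, with the rest interleaved (-0.25 ± 0.1402, adjusted p = 0.818, edgeR). The microsomal transferase Mgst1 was at 118 ± 27.8 and 101 ± 21.95 CPM (-0.23 ± 0.183). The cytosolic Gstm1 was at 259 ± 23.8 and 246 ± 25.1 CPM (-0.071 ± 0.0814). Gstp1, which has the near-identical copy Gstp2, was at 35.6 ± 5.51 and 35.2 ± 4.62 CPM (-0.020 ± 0.114).

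**Figure D3:**
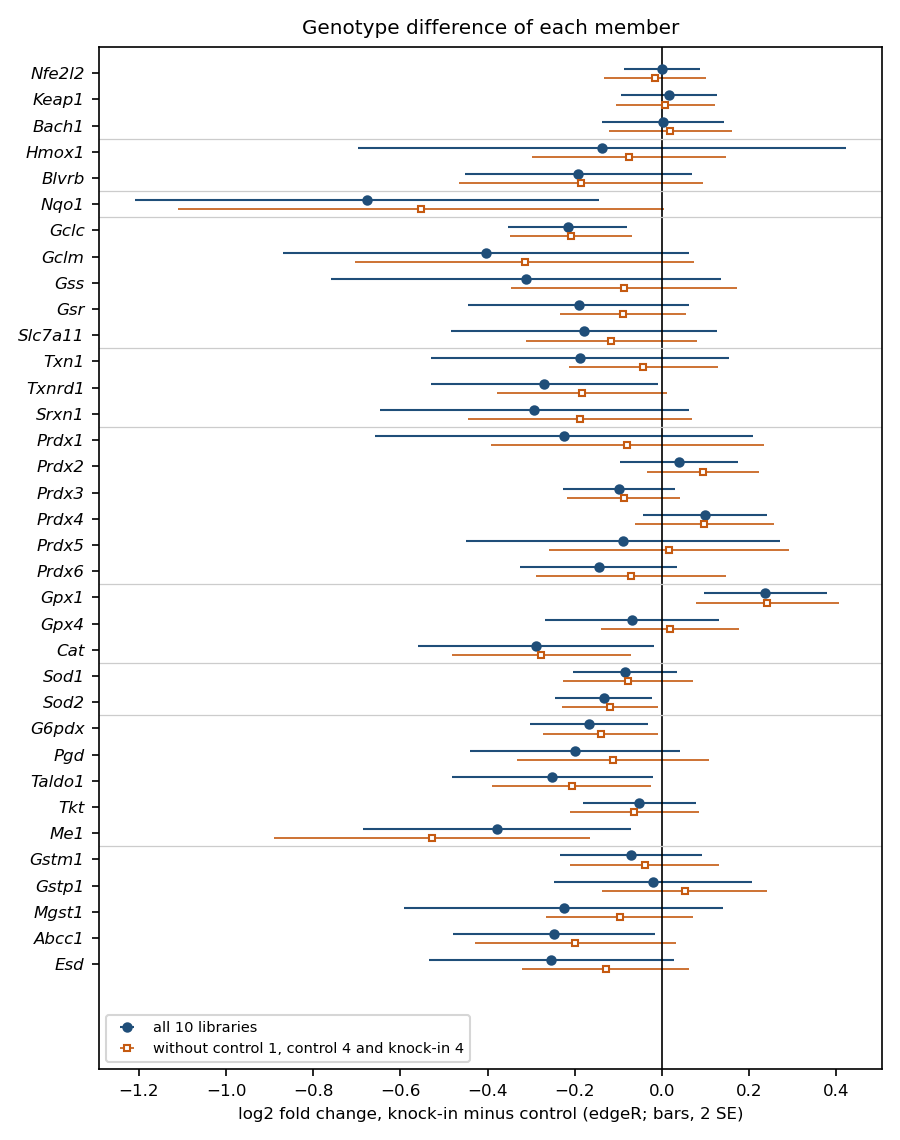
Fitted log2 fold change (knock-in minus control, x axis) with bars of 2 SE for each member, over all 10 libraries (filled) and without control 1, control 4 and knock-in 4 (open). Gpx1 lies to the right of 0, the regulators on 0 and 29 of 35 members to the left, and Gss, Gsr, Txn1, Prdx1 and Mgst1 move towards 0 without the 3 libraries.

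Across libraries the target genes varied together within each genotype. Control 1 and control 4 both lay above the other 3 controls for 25 of 35 members (15.8% of all tested genes), and knock-in 4 lay above the other 4 knock-ins for 28 of 35 (24.4% of all tested genes). Both held for 24 of 35 members, against 8.45% of all tested genes. These 24 include every member of glutathione supply and of the thioredoxin system, Nqo1, Hmox1, Cat, G6pdx, Pgd, Taldo1, Prdx1, Prdx2, Prdx3, Prdx5, Gpx4 and the 5 transferase, export and esterase genes. Nfe2l2, Keap1, Bach1, Blvrb, Prdx4, Prdx6, Gpx1, Sod1, Sod2, Tkt and Me1 were outside it. At the other end, knock-in 5 was the lowest of the 10 libraries for 21 of 35 members, against 10.0% of all tested genes.

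The order of the libraries was not the same for the members and the stromal markers below the top 3. The median log2 CPM of the members was 7.83, 7.57, 7.75, 8.03 and 7.56 in controls 1 to 5 and 7.75, 7.63, 7.48, 7.83 and 7.17 in knock-ins 1 to 5. Knock-in 3, with the fourth highest stromal sum (25.5 CPM), had the second lowest member median, and knock-in 1, with 3.91 CPM, stood at the level of control 3. The stromal sum (2.53 CPM) and the neutrophil sum (4.91 CPM) were both lowest in knock-in 5, where the members were also lowest. Whether stromal or neutrophil RNA, or the cultures that hold it, had a part in the members' levels was not tested. Another gene overlapped 14 of the 35 members, and whether the counting used strand is not stated in the labels. In these bulk samples, fewer cells of a type and less RNA per cell cannot be told apart.

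**Figure D4:**
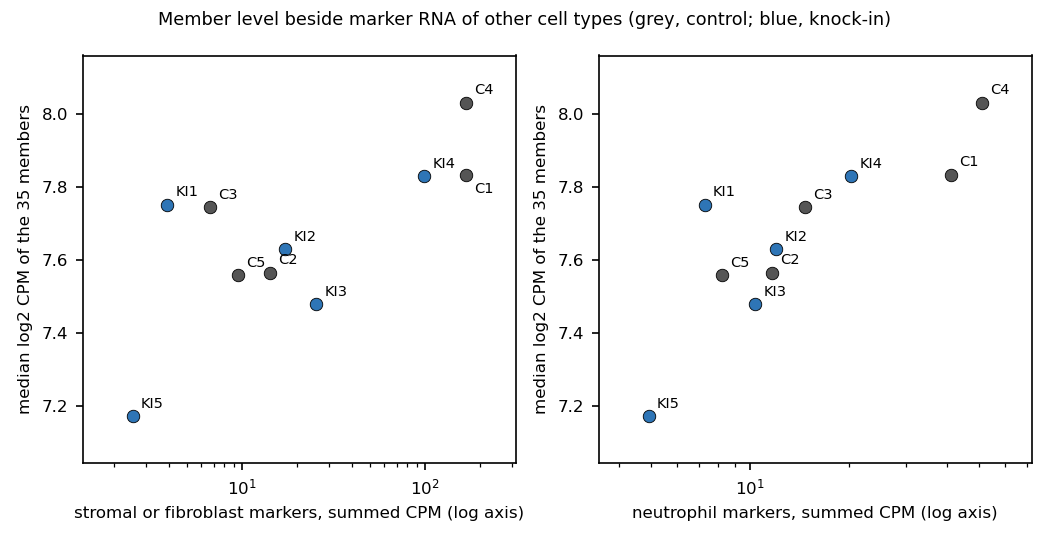
Median log2 CPM of the 35 members (y axis) against the summed CPM of the stromal markers (left, log axis) and the neutrophil markers (right, log axis), with each point 1 library (grey, control; blue, knock-in). C4, C1 and KI4 lie at the top right of both panels and KI5 at the bottom left, at 7.17 on the y axis.

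With the 3 stroma-rich libraries left out, 3 controls and 4 knock-ins remained. The groups then did not overlap for 5 of 35 members (Gclc, Sod2, Taldo1, Me1 and Gpx1), against 7.63% of all tested genes, and 0 of 35 had an adjusted p under 0.05, against 0.304% of all tested genes. Gss, at log2 -0.31 over all libraries, was at -0.087 ± 0.1299, Txn1 was at -0.19 and then at -0.042 ± 0.0856 and Prdx1 at -0.22 and then at -0.079 ± 0.156. Gclc, Cat, Gpx1 and Sod2 kept values close to those of the full set.

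Further genes of the pathway had fitted differences of both signs. Of 74 listed genes 68 were tested, 0 had an adjusted p under 0.05 (edgeR), 44 of 68 (64.7%, against 51.7% of all tested genes) were below 0 and the median was -0.038. Carbonyl and quinone detoxification had 9 of 13 below 0 (median -0.061), and its genes with the smallest p were the aldose reductase relative Akr1b8, at 67.5 ± 11.2 and 53.6 ± 5.41 CPM (-0.33 ± 0.108), and Osgin1, an oxidative stress response gene, at 22.9 ± 4.02 and 17.6 ± 3.07 CPM (-0.39 ± 0.136). Other glutathione and cystine genes had 8 of 10 below 0 (median -0.11). Glutaredoxin (Glrx) was at 73.3 ± 8.15 and 61.9 ± 4.89 CPM (-0.24 ± 0.0802), and Glrx3 at 77.7 ± 10.5 and 68.9 ± 3.61 CPM (-0.17 ± 0.0827).

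Of the partners of NRF2 and its degradation 5 of 8 were below 0 (median -0.058). Sqstm1, the autophagy receptor p62 that binds KEAP1 and is itself an NRF2 target, was at 425 ± 21.96 and 391 ± 26.2 CPM (-0.12 ± 0.0594), and the small MAF gene Mafk was at 27.5 ± 3.41 and 29.9 ± 0.165 CPM (0.12 ± 0.0768). Other transferases and conjugate exporters had 9 of 13 below 0 (median -0.056), with Abcc5 at 109 ± 3.67 and 101 ± 4.57 CPM (-0.11 ± 0.04895) and Mgst2 at 4.32 ± 3.002 and 2.79 ± 1.71 CPM (-0.66 ± 0.543). Heme and ferritin genes had 5 of 6 below 0 with a median of -0.028, with the heme transporter Slc48a1 at 538 ± 80.2 and 491 ± 53.00 CPM (-0.13 ± 0.102) and the biliverdin reductase Blvra at 96.1 ± 8.49 and 92.96 ± 2.26 CPM (-0.047 ± 0.06102).

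Other thioredoxin, sestrin and methionine sulfoxide genes had 5 of 11 below 0 (median 0.043), with Msra, a methionine sulfoxide reductase, at 29.2 ± 5.09 and 33.7 ± 4.82 CPM (0.21 ± 0.131) and Txnl1 at 75.6 ± 7.85 and 70.7 ± 2.58 CPM (-0.10 ± 0.0684). A list of further genes of the pentose phosphate pathway, isocitrate and malate oxidation and NADPH exchange (Pgls, Rpia, Rpe, Idh1, Idh2, Me2 and Nnt) had 3 of 7 below 0 (median 0.025). Rpia, the ribose phosphate isomerase that follows the NADPH steps, was at 14.4 ± 1.098 and 16.6 ± 0.799 CPM (0.21 ± 0.0711), and mitochondrial Idh2 was at 49.1 ± 4.91 and 51.3 ± 2.74 CPM (0.063 ± 0.0719). None of these 14 named genes passed the test.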

How the data were processed

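Strand-specific poly(A)+ libraries were read in pairs of 100 bases, per the labels' protocols. Salmon 1.6.0, MultiQC and DESeq2 1.34.0 are named in the submitters' processing notes, with the builds GRCm39 and mm10 and no roles; the annotation release and strand setting of the counting were not given in the sources used here. Deposited estimated counts per gene were rounded to whole numbers. The deposited log2 values, on the regularized-log scale by the name of their table, served for symbols and 1 alternative. They have 14492 rows, chosen in a way not given in the sources used here.

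Genotype was tested with edgeR 4.0.16 (R 4.3.3; TMM factors, filterByExpr at its defaults of 10 counts and a total of 15, robust quasi-likelihood F-test) over all 10 libraries without covariates, with Benjamini-Hochberg adjustment over 12411 genes and a threshold of 0.05. The SE is the log2 fold change divided by the square root of F. Means are given ± SD over 5 libraries, and log2 CPM uses a prior count of 2. Every p weighs a fitted genotype difference against the spread between these libraries. Within a genotype, each pair of libraries had a per-gene chi-square between 8.44 and 48.4, and none was taken as a copy. Per-library values are given for the regulators, the 14 members with the smallest p and any member whose groups did not overlap. Those of Hmox1 and Prdx1 were added after their values were seen. In each further list the 2 genes with the smallest p are named. The members and lists were chosen with earlier results of these data known. Other settings tried were DESeq2 1.42.0, factors by RLE or upper quartile, limma 3.58.1 (voom, and trend on the log2 values), 2 other count filters, no robust estimation, a replicate block and each library left out. Leaving out the 3 stroma-rich libraries and the marker scores as covariates were added with the data known. The edgeR, DESeq2 and limma-voom fits were run first on simulated counts with known changes, and the other steps were not. Copies were sought with blastn (at least 200 bases at 95% identity) in GENCODE M21, whose GRCm38 positions were assigned by gene ID, and promoter sequences are from RefSeq (GRCm38.p6).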

Additional observations from a re-analysis of the deposited data

Results flagged for a closer look

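Among 70 groups of 5 libraries (35 members in each genotype), 3 held a library far from the other 4, by a gap to its nearest neighbour that took more of the whole range than Dixon's limit of 0.71. Chance alone flags about 5% of such groups. Hmox1 in knock-in 4 was at 1316 CPM against 622 to 667 CPM in the other knock-ins (gap of 0.934 of the range). Knock-in 4 is the knock-in with the highest stromal sum (99.4 CPM) and the highest neutrophil sum (20.4 CPM). Sod2 in control 4 was at 66.9 CPM against 57.5 to 58.8 CPM (gap of 0.8596), in the control with the highest neutrophil sum (51.01 CPM). Control 1, with the next highest neutrophil sum (41.0 CPM), had the lowest Sod2 of the controls (57.5 CPM). The stromal sum was 167 CPM in control 4 and 168 CPM in control 1. Me1 in control 5 was at 7.86 CPM against 5.08 to 5.804 CPM (gap of 0.739), and that library has neither marker sum raised. Whether stromal or neutrophil RNA had a part in these 3 values was not tested.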

How the results depend on the processing

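In all 22 alternatives 0 members and 0 further pathway genes had an adjusted p under 0.05, and the median log2 fold change of the members stayed below 0, from -0.26 without knock-in 4 to -0.015 with the neutrophil score as a covariate. The direction of 20 members held in all 22. It turned with limma-trend fitted to deposited log2 values for Nfe2l2 (-0.0038) and Bach1 (-0.017); without a count filter for Nfe2l2 (-0.0037) and Bach1 (-0.0014); with a filter of 1 CPM in 5 libraries for Nfe2l2 (-0.0016); without the 3 stroma-rich libraries for Nfe2l2 (-0.015), Prdx5 (0.016), Gpx4 (0.019) and Gstp1 (0.052); with the stromal score as a covariate for Hmox1 (0.053), Prdx5 (0.036), Gpx4 (0.014) and Gstp1 (0.084); with the neutrophil score as a covariate for Nfe2l2 (-0.00062), Hmox1 (0.27), Gss (0.079), Gsr (0.034), Slc7a11 (0.041), Txn1 (0.11), Prdx1 (0.086), Prdx5 (0.21), Gpx4 (0.11), Gstm1 (0.017), Gstp1 (0.17) and Mgst1 (0.074). Leaving out 1 library turned the direction in at least 1 fit for Nfe2l2 (-0.0069 to 0.016), Keap1 (-0.020 to 0.048), Bach1 (-0.036 to 0.051), Hmox1 (-0.41 to 0.023), Gstp1 (-0.094 to 0.059), Prdx5 (-0.20 to 0.052) and Prdx2 (-0.0049 to 0.10). The cause was not tested. Over all genes 10 were called, and 48 in DESeq2, 38 without the 3 stroma-rich libraries and 6 to 23 in the fits without 1 library. The number of members whose groups did not overlap was 1 (1.32% of all tested genes), and 0 on the deposited log2 values (1.17%). It was 5 without the 3 stroma-rich libraries (7.63% of all tested genes there). Without 1 library it was 1 to 5, while the share of all tested genes ran from 1.83% (without knock-in 3) to 3.00% (without knock-in 4). A replicate block changed no call of a member (smallest adjusted p = 0.188, edgeR) and gave 12 called genes and a member median of -0.17. In that fit 16 of 35 members had an unadjusted p under 0.05, against 7.50% of all tested genes. The labels do not say that replicate numbers pair mice, same-numbered libraries correlated at -0.20 to 0.51 in their deviations from the group means, and 4 of 10 libraries correlated best with their own number. The SE of a member's log2 fold change ran from 0.0438 (Nfe2l2) to 0.2800 (Hmox1), which limits the differences that could be detected.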
